A study of Mus musculus with 22 samples.

Results

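Dux siRNA was added to Rpl14 siRNA in mouse embryonic stem cells, and the transcriptome with both siRNAs was compared with that under Rpl14 siRNA alone. The comparison takes 6 of the 22 RNA-seq libraries of the series, chosen by their titles, with 3 libraries on each side spread over 2 deposited expression tables. One table holds 1 library a side, called set 2. The other holds 2 libraries a side, called set 3. Each comparison was made within its own table, and the genes reported first are those that differed the same way in both.

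All libraries came from E14, a mouse embryonic stem cell line grown on gelatin in serum with leukemia inhibitory factor (LIF), transfected with siRNA by DharmaFECT and harvested 3 days later. Libraries were prepared from the RNA by a stranded mRNA protocol. Every cell received a pair of siRNAs. The siRpl14 group received siRpl14 with siNT, and the siRpl14+siDux group received siRpl14 with siDux. Beside them, in the same tables, stand siNT paired with itself (called siNT) and siDux given with siNT (called siDux), with 1 library each in set 2 and 2 each in set 3. The labels do not spell out NT, and siNT is taken here as the control. Set 1, in the same table as set 2, holds 8 more libraries, among them siNT and siRpl14 with 2 libraries each and none with siDux. These served only to choose genes. That sets 1 and 2 are separate experiments was read from the style of the titles. Whether the replicates are separate cultures is not in the labels, so a p-value here reflects the spread among these libraries, and that spread may be technical. A knockdown lowers an mRNA without removing it, and the labels name neither siRNA sequences nor a second siRNA per target.

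Rpl14 encodes a protein of the large ribosomal subunit. Shortage of a ribosomal protein is known to leave free ribosomal proteins that bind Mdm2, the ubiquitin ligase of p53, and so to stabilise p53. Dux is a double-homeobox transcription factor of the mouse 2-cell embryo, and in embryonic stem cell cultures it switches on a rare, transient 2C-like state. The Zscan4 family, Usp17-like deubiquitinases, Eif1a-like translation factors and Tcstv, Tdpoz and Pramel genes belong to that state. The comparison asks which part of the siRpl14 transcriptome is lower or higher when siDux is also present.

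Among the sequences of the genes that were lower in both tables, the promoters of 4 Zscan4 genes share a stretch near the start site, shown here because these genes carry the main result. Each line gives 41 bases, 5′ to 3′ on the gene's strand, from RefSeq's windows on GRCm38.p6 (250 bases before to 50 after the start), with an 11-base match in capitals.
Zscan4b: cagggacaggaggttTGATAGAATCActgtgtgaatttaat
Zscan4c: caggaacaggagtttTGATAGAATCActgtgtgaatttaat
Zscan4d: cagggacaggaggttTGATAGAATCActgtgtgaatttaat
Zscan4f: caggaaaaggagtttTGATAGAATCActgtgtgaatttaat
The Zscan4b stretch lies at chr7:10905116-10905156 on the minus strand, with its match 91 bases before the start. That of Zscan4c lies at chr7:11005616-11005656 on the plus strand, 114 bases before. That of Zscan4d lies at chr7:11166248-11166288 on the minus strand, 125 bases before, and that of Zscan4f at chr7:11397809-11397849 on the plus strand, 91 bases before. The windows share 38 to 41 of their 41 bases pairwise, so they are near-identical copies and not independent occurrences. The match was found by searching both strands for TGATT, any 2 bases and ATCA, a relaxed form of the known Dux motif, and lies on the strand opposite the one printed.

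Of the 34 genes lower in both tables, 15 had a promoter in the RefSeq windows, and 4 of the 15 held this gapped motif, all of them Zscan4 genes. Of 8658 genes measured in both tables with a promoter, 10 (0.116%) held it, as did 0.207% of all 32851 windows. Of 29 promoters of genes higher in both tables, 0 held it. With the open bases fixed as CA, the known form, or with only the latter fixed as A, both of them narrower cases of the same motif, 0 of the 15 windows held it (0.00913% and 0.0335% of all windows). A further motif, TAAT, any 2 bases and AATCA, was in 1 of the 15, that of BB287469 (0.35% of all windows), and can overlap the first in AATCA. The exact letters in capitals, looked up only after they had been seen, were in 7 of all windows (0.0213%). A match describes letters only.

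The siRNA targets were measured first. Rpl14 stood at 1025 FPKM (fragments scaled to transcript length and library size) in siNT and 1089 in siDux of set 2, against 354 in siRpl14 and 360 in siRpl14+siDux. In set 3 it stood at 1361 and 1094 FPKM in siNT, 329 and 302 in siRpl14 and 353 and 279 in siRpl14+siDux. Adding siDux therefore left Rpl14 mRNA in the same range, at 35.1% of siNT in set 2 and with a set 3 difference of -0.01 ± 0.17 (SE, n = 2 per group) on log2(FPKM + 1). Dux mRNA was scarce. In set 2 it stood at 0.306 FPKM in siNT, 0.0546 in siDux, 1.5 in siRpl14 and 0.168 in siRpl14+siDux, which is 11.3% of the siRpl14 level. Set 3 listed it at 0 in every library but siRpl14 replicate 2, at 3.03 FPKM, so that table does not check the Dux knockdown. Rpl14-ps1, a copy of Rpl14 that can share reads with it, stood at 8.53 and 7.43 FPKM in set 2, and at 31.5 and 13.7 FPKM with siRpl14 against 45.4 and 65.7 with both siRNAs in set 3.

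The tables differ in resolution. In the 6 libraries compared, 30.1 to 31.3% of genes were listed at 0 in set 2 and 53.1 to 55.7% in set 3, and the 10th percentile of values above 0 was 0.0641 to 0.0770 FPKM in set 2 and 1.27 to 1.60 FPKM in set 3. Absolute depth is unknown. A 0 in set 3 can be a failed estimate or a level too low to be seen: of 4022 genes at 20 FPKM or more in both set 2 libraries, 19 (0.472%) were listed at 0 in all 4 set 3 libraries compared, among them Atp5g1, a subunit of the mitochondrial ATP synthase, at 256 and 248 FPKM in set 2. Such values are therefore given as listed at 0. Where a library is at 0, a fitted difference on log2(FPKM + 1) depends on the pseudocount and is neither a fold of the level nor a bound on one. The 11 embryonic stem cell markers looked for, Pou5f1, Nanog and Esrrb among them, were all detected in each of the 6 libraries, with a summed level of 5075 and 4829 FPKM in set 2 and 1978 to 2571 FPKM in set 3. The 7 fibroblast markers summed to at most 4.58 FPKM, with Col3a1, Postn and Dcn at 0 in all 6. Between replicates of set 3, Pearson's r over 7026 genes was 0.844 in siRpl14 and 0.799 in siRpl14+siDux, where genes are not independent replicates.

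With siDux added to siRpl14, the 2C-like genes stood at a fraction of their siRpl14 level in set 2 and were mostly listed at or near 0 in set 3, while p53 targets such as Mdm2 stood close to their siRpl14 level. A gene was counted as matching when both siRpl14+siDux libraries of set 3 lay on one side of both siRpl14 libraries, and the differences in both tables had the same sign and were at least 1.5-fold on log2(FPKM + 1). Of 10939 genes measured in both tables, 34 (0.311%) matched as lower and 43 (0.393%) as higher, and 11 (0.101%) passed both folds with opposite signs. Of the 34 lower genes, 16 (47.1%) were on the 2C-like list, against 0 of the 43 higher genes and 20 of all 10939 genes. That list was chosen with earlier results of these data known. In set 3, 19 of the 34 (55.9%) were listed at 0 in both siRpl14+siDux libraries, so their passing of the fold there rests on those zeros. None of these 77 genes (0.704%) passed the set 3 test on its own, limma with trended and robust empirical Bayes moderation and Benjamini-Hochberg adjustment over 13189 genes. That test called 1 gene higher (0.00758%) and 1 lower (0.00758%), with 894 genes (6.78%) at an unadjusted p under 0.05. When sets 2 and 3 were fitted together over 12 libraries with a term for the table, limma called 1 gene lower (0.00889% of 11252) and 0 higher (0%), and the called gene was Zscan4c.

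**Figure D1:**
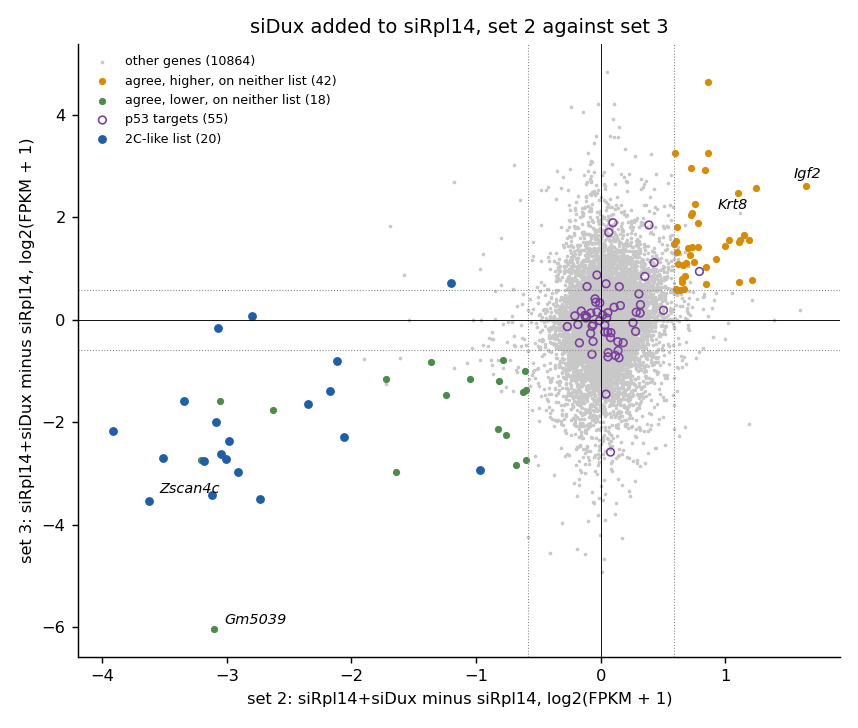
Each point is a gene measured in both tables. The x axis is the set 2 difference and the y axis the set 3 difference, siRpl14+siDux minus siRpl14 on log2(FPKM + 1), and dotted lines mark 1.5-fold. The 2C-like genes (blue) lie to the left, between -3.91 and -0.97 in set 2, and the p53 targets (open purple) lie around the origin.

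The Zscan4 family, zinc-finger and SCAN-domain proteins known for telomere maintenance and as markers of the 2C-like state, were lower in both tables. Zscan4c stood in set 2 at 18.6 FPKM in siNT, 0.966 in siDux, 41.3 in siRpl14 and 2.43 in siRpl14+siDux. Set 3 had it at 3.37 and 2.14 FPKM in siNT and 11.3 and 9.88 in siRpl14, and was listed at 0 in all siDux and siRpl14+siDux libraries. The siRpl14 libraries were the highest in both tables, and the libraries with siDux lay below siNT in both, whether or not siRpl14 was present. The set 2 level with both siRNAs was 5.88% of that with siRpl14 and 13% of that in siNT. The set 3 difference was -3.53 ± 0.58 (SE; limma, adjusted p = 0.168), and in the joint fit Zscan4c fell by 3.56 (limma, adjusted p = 0.0234). Over the other settings tried in set 3 its adjusted p ranged from 0.0291 to 0.66.

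The other Zscan4 genes followed the same order. Zscan4d went from 58.1 FPKM with siRpl14 to 2.92 with both siRNAs in set 2, and from 1.77 and 6.26 FPKM to a listing of 0 in both libraries of set 3. Zscan4f was at 28.5 against 1.59 FPKM in set 2, and at 11.3 and 11.7 against 0 and 2.70 FPKM in set 3. Zscan4a was at 35.9 against 2.64 FPKM in set 2, and at 9.62 and 13.4 against 1.99 and 4.65 FPKM in set 3. All 5 Zscan4 genes in the tables matched as lower, with set 2 levels at 5.03 to 8.27% of siRpl14. By the matching rule, no siRpl14+siDux library of set 3 then reached the lower siRpl14 library of the same gene. The copies are close enough to share reads, so the split among them is uncertain and they are not separate observations.

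The Usp17-like genes encode deubiquitinases and also lie in near-identical copies. Usp17le was at 7.03 FPKM in siNT, 0.567 in siDux, 27.7 in siRpl14 and 2.16 in siRpl14+siDux of set 2, and at 6.79 and 4.87 FPKM in siRpl14 of set 3 against a listing of 0 in both siRpl14+siDux libraries. Usp17lb was at 27.5 against 2.55 FPKM in set 2, and at 4.08 and 7.38 FPKM against 0 and 0 in set 3. Both genes matched, so by the matching rule their set 3 groups did not overlap, and set 2 gives 1 library a side. Usp17la and Usp17lc were lower in set 2, at 16.9 against 1.13 FPKM and at 12.2 against 0.896 FPKM. In set 3 their groups overlapped, with Usp17la at 2.61 and 1.14 against 1.38 and 1.62 FPKM, and Usp17lc at 0 and 1.56 against 1.86 and 0 FPKM. So 3 of the 5 Usp17-like genes matched between the tables.

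The Eif1a-like genes resemble the translation initiation factor eIF1A, which helps the small ribosomal subunit find the start codon. Gm5662 stood at 12.2 FPKM in siNT, 0.767 in siDux, 23.9 in siRpl14 and 2.75 in siRpl14+siDux of set 2. In set 3 it stood at 9.07 and 6.08 FPKM in siNT, 0 and 0 in siDux, 21.8 and 15 in siRpl14 and 1.89 and 0 in siRpl14+siDux. The groups compared did not overlap, which matching requires. Gm2016 was at 28.1 against 2.35 FPKM in set 2 and at 17.3 and 29.9 against 4 and 0 FPKM in set 3. Gm8300 was at 20.9 against 1.92 FPKM in set 2 and at 15.5 and 21.3 against 0 and 5 FPKM in set 3. Gm2022 was at 20.8 against 1.65 FPKM, and at 7.44 and 3.44 FPKM against 0 and 0. All 5 Eif1a-like genes measured in both tables matched as lower. In set 2 the family kept 7.90 to 11.7% of its siRpl14 level.

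Single markers and the smaller families were mostly below the resolution of set 3. Tmem92, which encodes a transmembrane protein, was at 21.1 against 1.6 FPKM in set 2 and at 3.14 and 2.78 FPKM against 0 and 0 in set 3. Arg2, the mitochondrial arginase, was at 7.30 against 0.921 FPKM in set 2, while in set 3 one siRpl14+siDux library was listed at 0 and the other, at 7.37 FPKM, was above both siRpl14 libraries at 3.03 and 5.23 FPKM. Zfp352, a zinc-finger gene of the 2-cell embryo, was at 3.81 against 0.239 FPKM in set 2, with set 3 at 0 and 1.82 against 0 and 0 FPKM. Tdpoz4 and Tdpoz3, of a family with TRAF and BTB domains, went from 5.78 to 0.339 and from 5.75 to 0.297 FPKM in set 2 and were at 0 in all set 3 libraries compared. The Pramel-family genes Pramef25 and Gm13119 matched as lower, at 4.29 against 0.272 and 7.01 against 0.576 FPKM in set 2.

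Of 63 genes on the 2C-like list, 42 were in the tables, 30 reached 1 FPKM in at least 1 of the set 2 libraries compared, 22 were tested in set 3 and 20 were measured in both. In set 2 all 30 were at least 1.5-fold lower, where 162 of 11787 genes (1.37%) were that much lower and 180 (1.53%) higher. Many of them passed the filter through the siRpl14 library, so the whole list was counted too. Of all 42 members, with no filter, 36 were lower with siDux, 5 equal, and 1, Rfpl4, higher at 0.0583 against 0.0448 FPKM. Chosen by siNT instead, 22 members stood at 1 FPKM or more in the set 2 siNT library, and 21 of these were at least 1.5-fold lower when siDux was added to siRpl14. The exception, Obox6, was at 0.385 against 0.246 FPKM, which is under 1.5-fold on log2(FPKM + 1). Rfpl4 and Obox6 are named after their values were seen.

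In set 3, the siRpl14+siDux libraries lay below both siRpl14 libraries for 17 of the 22 tested 2C-like genes, where 2037 of 13189 genes (15.4%) did so, and above them for 0, where 2185 (16.6%) did. Of the 22, 4 reached 1 FPKM in no library without siRpl14 and so passed the filter through the libraries where they are high. Chosen by siNT instead, 17 members stood at 1 FPKM or more in a set 3 siNT library, and for 15 of these the siRpl14+siDux libraries lay below both siRpl14 libraries, with 0 above. Of the 22, 13 were listed at 0 in both siRpl14+siDux libraries. Among members above 0 in both siRpl14 libraries, a choice made on the side where they are high, this held for 12 of 19 (63.2%). Of all tested genes chosen that way it held for 332 of 9855 (3.37%), a share not matched for expression level. In the mirror choice, above 0 in both siRpl14+siDux libraries, 0 of 2 members were listed at 0 in both siRpl14 libraries. Over all tested genes that was 211 of 9441 (2.23%). The median difference was -2.36 in set 2 and -2.32 in set 3 on log2(FPKM + 1), against 0.01 and 0 over all genes. Both medians cover the members kept by the filters, some of them only through siRpl14 libraries, where they are high. With so many values at 0, the set 3 median depends on the pseudocount, and was -5.02 with 0.1 FPKM and -0.94 with 5 FPKM in place of 1. By limma 0 of the 22 were called in set 3, and 16 had an unadjusted p under 0.05. RNA of whole cultures cannot tell fewer 2C-like cells from less of these RNAs per cell.

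**Figure D2:**
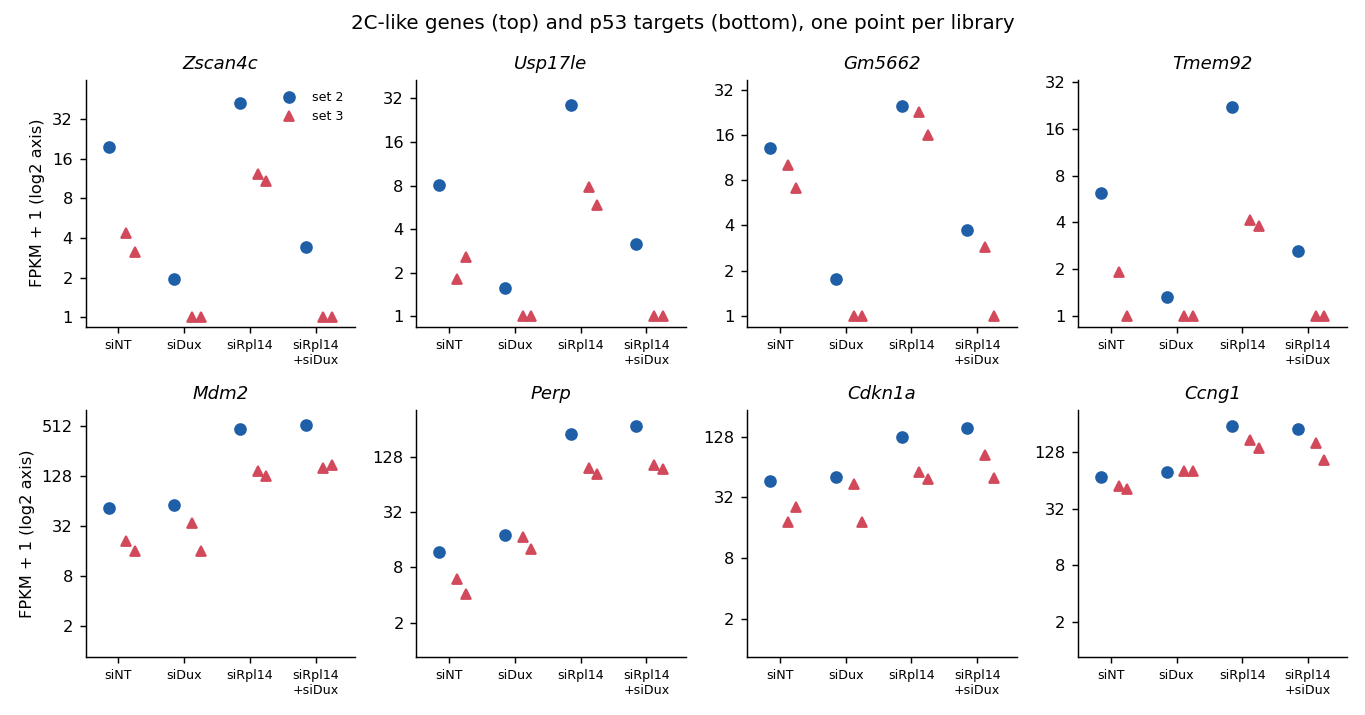
FPKM + 1 on a log2 axis in every library of sets 2 (circles) and 3 (triangles), by siRNA. For Zscan4c, Usp17le, Gm5662 and Tmem92 the libraries with siDux sit lowest in both sets (1 siNT library of set 3 is also at 0 for Tmem92), and for Mdm2, Perp, Cdkn1a and Ccng1 the siRpl14 and siRpl14+siDux libraries sit together above siNT.

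The 2C-like genes were lower with siDux in the absence of siRpl14 as well. In siDux against siNT, which are libraries separate from those above, the median of the list was -1.40 in set 2 and -1.19 in set 3, against 0.01 and 0 over all genes. With both siRNAs the genes stood below siNT, with medians of -0.87 in set 2 and -1.02 in set 3. Zscan4c, for example, went from 18.6 to 0.966 FPKM in set 2 with siDux alone. Whether siDux acted differently in the presence of siRpl14 was tested by the interaction in set 3, which called 0 of the 22 2C-like genes by limma (2 at an unadjusted p under 0.05), where 2 of all 13189 genes (0.0152%) were called and 699 (5.3%) had an unadjusted p under 0.05. The median interaction of the list was -0.90, against -0.02 over all genes, so these counts do not show that siDux acted alike in both backgrounds. The joint fit of both tables called 0 interactions.

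Genes off the 2C-like list made up the other 18 of the 34 lower genes (52.9%). The list is incomplete, and leaves out the Pramel gene Gm12794, so being off it does not place a gene outside the 2C-like state. Gm5039 had the largest set 3 difference of the 34. It stood at 32.7 against 2.92 FPKM in set 2 and at 53.1 and 78.2 FPKM against a listing of 0 in both libraries in set 3 (limma, adjusted p = 0.0966 in set 3 and 0.0618 jointly). Gm12794, listed by RefSeq as Pramel19, was at 18 against 1.06 FPKM in set 2, and at 14 and 12.3 against 0 and 3.5 FPKM in set 3. Both followed the 2C-like genes across all 4 conditions, at 0.479 and 0.186 FPKM in the siDux library of set 2 against 14.5 and 4.25 FPKM in siNT.

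Trim75, a tripartite-motif gene named after its values were seen, showed the same order at very different levels in the tables. It stood in set 2 at 1.24 FPKM in siNT, 0.038 in siDux, 3.07 in siRpl14 and 0.304 in siRpl14+siDux. In set 3 it stood at 33.5 and 42.7 FPKM in siNT, 1.46 and 4.38 in siDux, 147 and 179 in siRpl14 and 14.4 and 27 in siRpl14+siDux. It is thus a gene with no library at 0 whose libraries in set 3, 8 in all, fall in the same order as the Zscan4 genes, with a difference of -2.98 ± 0.45 (SE, limma, adjusted p = 0.117).

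Further lower genes off the 2C-like list are given singly. Snrpe, a core protein of spliceosomal small ribonucleoproteins, was at 252 against 146 FPKM in set 2 and at 254 and 279 against 149 and 160 FPKM in set 3. Its siNT libraries stood at 268 and 141 FPKM in set 3, a spread nearly as wide as that of the groups compared. Fbxo15, an F-box gene expressed in embryonic stem cells, was at 256 against 166 FPKM in set 2 and at 108 and 73.4 against 25.4 and 42.6 FPKM in set 3, where siNT stood between the groups at 64.3 and 55.7 FPKM. Arhgef26, a guanine nucleotide exchange factor, was at 9.45 against 3.06 FPKM in set 2 and at 6.62 and 5.81 against 2.84 and 3.33 FPKM in set 3. Porcn, the acyltransferase that lipidates Wnt ligands, was at 20.4 against 12.4 FPKM in set 2, and at 9.36 and 3.85 FPKM against 0 and 0 in set 3, where a siDux library was also at 0 and a siNT library at 16.3 FPKM. Nelfa, a subunit of the negative elongation factor and a known activator of Dux, matched as lower at 81.8 against 53.6 FPKM in set 2, with 15.8 and 7.52 against 1.92 and 6.45 FPKM in set 3. Of the genes listed as activators or repressors of the 2C-like state, 38 were tested in set 3, 2 matched as lower (5.26%, against 0.311% of all genes) and 0 as higher (against 0.393%). They were Nelfa and Zscan4c, and Zscan4c is also counted on the 2C-like list.

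Targets of p53 showed no shared shift when siDux was added to siRpl14. Mdm2, the ubiquitin ligase and feedback target of p53, stood in set 2 at 51.4 FPKM in siNT, 55.7 in siDux, 472 in siRpl14 and 526 in siRpl14+siDux. In set 3 it stood at 20.2 and 14.9 FPKM in siNT, 33.7 and 14.7 in siDux, 143 and 128 in siRpl14 and 157 and 172 in siRpl14+siDux. Both siRpl14+siDux libraries of set 3 lay above both siRpl14 libraries, by a difference of 0.28 ± 0.37 (SE), which is smaller than its error. Perp, a membrane protein of p53-dependent cell death, was at 225 against 274 FPKM in set 2 and at 95 and 81.3 against 103 and 92.8 FPKM in set 3, with siNT at 10.7 FPKM and at 4.98 and 3.10 FPKM. Cdkn1a, which encodes p21 and arrests the cell cycle, was at 125 against 156 FPKM in set 2 and at 55.9 and 47.8 against 82.8 and 49.1 FPKM in set 3. Plk2, a polo-like kinase, was at 188 against 187 FPKM in set 2, and at 45.2 and 43.2 against 49.8 and 38.4 FPKM in set 3.

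Among the 5 feedback genes of the list, set 3 groups did not overlap for 2 (40%), both higher. Among the 14 cell-death genes they did not overlap for 3 lower (21.4%) and 1 higher (7.14%). Over all genes the shares were 15.4% lower and 16.6% higher, and such small groups cannot be told from them. Ccng1, which encodes cyclin G1, was at 240 against 227 FPKM in set 2 and at 173 and 142 against 160 and 106 FPKM in set 3. Trp53inp1, a stress-induced p53 cofactor, was at 199 against 189 FPKM, and at 169 and 145 against 157 and 132 FPKM. Trp53 itself was at 387 against 379 FPKM, and at 41.3 and 38.8 against 40.5 and 49.3 FPKM. For each of these 3 genes the set 3 groups overlapped.

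Of 57 p53 targets, 56 were tested in set 3 and 55 measured in both tables. The groups of set 3 did not overlap for 8 lower (14.3%) and 9 higher (16.1%), close to the 15.4% and 16.6% over all genes. By limma 0 were called, and 1 had an unadjusted p under 0.05. In set 2, 0 of 56 were 1.5-fold lower and 1 was that much higher. That gene was Sfn, the 14-3-3 sigma protein of the G2 checkpoint, and it also matched as higher, at 52.1 against 90.9 FPKM in set 2 and at 12.5 and 10.4 against 25.6 and 20.5 FPKM in set 3. The median difference of the list was 0.06 in set 2 and 0.05 in set 3. Against siNT, the medians were 0.09 and 0.19 with siDux, 1.21 and 0.97 with siRpl14 and 1.23 and 0.96 with both siRNAs, values that share the siNT libraries. Over all genes the siDux medians were 0.01 and 0. With siDux, 45 of the 56 tested targets stood above siNT in set 2 and 36 in set 3. Of all 13189 genes, 7094 and 6391 did so.

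Genes were also chosen in set 1, whose libraries took no part in the siDux comparison. There siRpl14 raised 512 genes at least 2-fold (limma, adjusted p under 0.05, 4.22% of 12129) and lowered 312 (2.57%). Of the raised genes 23 were on the 2C-like list, of which 19 were measured in both tables and 16 matched as lower. The other 489 had medians of 0.08 in set 2 and 0.01 in set 3 when siDux was added, and 8 of the 447 measured in both tables matched as lower (1.79%, against 0.311% of all genes) and 6 as higher (1.34%, against 0.393%). Fgfbp1, which encodes a carrier of fibroblast growth factors, was at 144 against 131 FPKM in set 2 and at 34.9 and 45.2 against 57.5 and 43 FPKM in set 3, with siNT at 2.7 FPKM and at 3.78 and 0 FPKM. Cd80, the T cell costimulatory ligand, was at 42.2 against 37.8 FPKM in set 2 and at 19.5 and 15.1 against 20.8 and 18.3 FPKM in set 3. In the other direction, 24 of the 34 genes lower in both tables (70.6%) had been raised in set 1, and 8 of those (23.5% of the 34) were off the 2C-like list. The genes that siRpl14 had lowered in set 1 had medians of 0.08 and 0 with siDux added. Of the 213 measured in both tables, 0 matched as lower (0%, against 0.311% of all genes). As higher, 2 matched (0.939%, against 0.393%), and these counts are too small to set the genes apart. Inhbb, the inhibin beta-B subunit, was at 5.91 against 5.97 FPKM in set 2, where siNT stood at 41.4 FPKM.

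**Figure D3:**
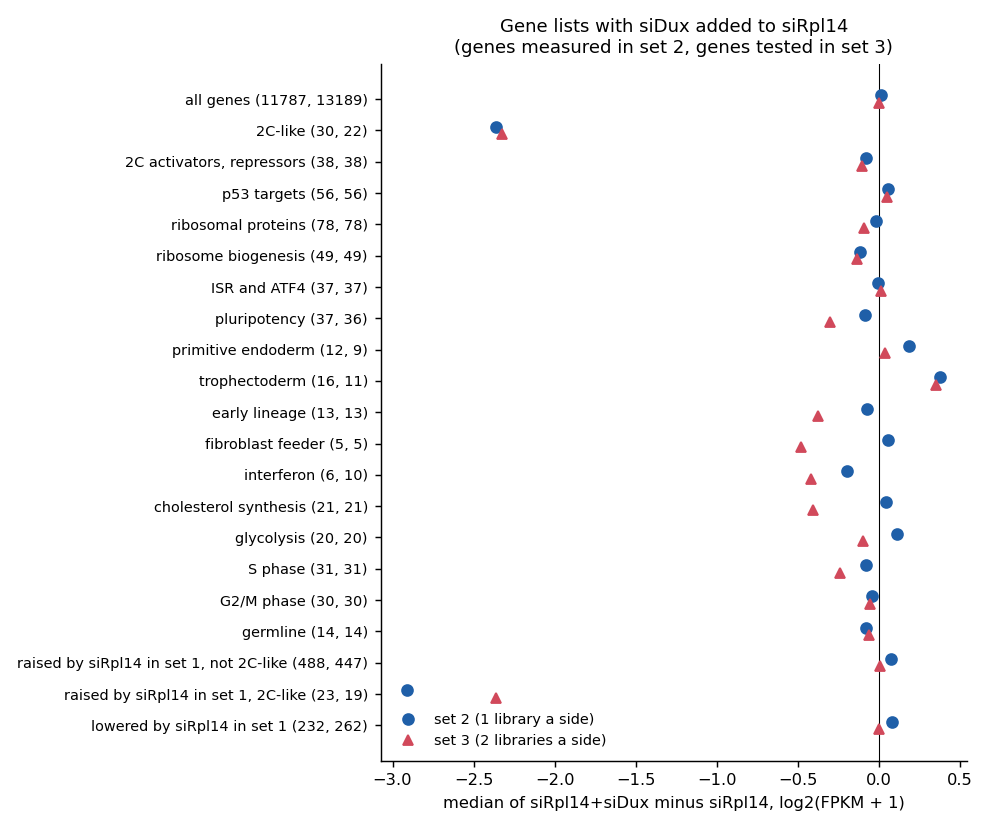
Median of siRpl14+siDux minus siRpl14 on log2(FPKM + 1) for each gene list, in set 2 (circles) and set 3 (triangles), with the numbers of genes in brackets. The 2C-like list, at -2.36 and -2.32, and its part raised in set 1, at -2.91 and -2.36, stand apart from the other lists, all of which lie between -0.48 and 0.38. Some 2C-like members passed the filters only through siRpl14 libraries, where they are high, which favours a lower median.

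The 43 genes higher with siDux added were smaller in difference and mostly on no list (41 of 43). Their medians were 0.75 in set 2 and 1.43 in set 3, values that the choice of the genes used. With siDux alone, in libraries the choice did not use, their medians were 0.11 and 0.28. The set 3 interaction contains the difference that chose the 43, so its counts are no separate evidence. By limma it called 0 of the 43, against 0.0152% of all genes. An unadjusted p under 0.05 held for 5, against 5.3% of all genes.

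Igf2, an imprinted fetal growth factor, stood in set 2 at 1.36 FPKM in siNT, 2.26 in siDux, 5.63 in siRpl14 and 19.7 in siRpl14+siDux. In set 3 it stood at 1.32 and 2.47 FPKM in siNT, 0.762 and 4.75 in siDux, 0 and 3.50 in siRpl14 and 11.2 and 12.8 in siRpl14+siDux, and the libraries with both siRNAs were the highest in each table. H19, the imprinted noncoding RNA beside Igf2, was at 8.86 against 18.7 FPKM in set 2 and at 2.77 and 0.813 against 5.07 and 7.33 FPKM in set 3. Peg10, a paternally expressed gene derived from a retrotransposon, was at 81.7 against 129 FPKM in set 2 and at 53.7 and 47.3 against 109 and 106 FPKM in set 3, with siNT at 51.5 FPKM and at 59.5 and 56.6 FPKM. Peg10 is named after its values were seen. Its set 3 difference was 1.08 ± 0.19 (SE; limma, adjusted p = 0.192).

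Further higher genes are given one by one, since they were on no common list. Krt8, a keratin of simple epithelia and trophectoderm, was at 18.6 against 40.9 FPKM in set 2 and at 0 and 1.47 against 13.4 and 4.32 FPKM in set 3. Cldn4, a tight-junction claudin, was at 41.8 against 91.6 FPKM in set 2 and at 7.02 and 4.02 against 15.5 and 20.5 FPKM in set 3. With siNT at 41.3 FPKM in set 2 and 11.3 and 12.9 FPKM in set 3, Cldn4 was higher with both siRNAs than in any other library of its table among these 4 conditions. Dsp, the desmosomal plaque protein desmoplakin, was at 5.54 against 12.4 FPKM, and at 2.02 and 1.31 against 7.68 and 6.07 FPKM. Ahnak, a large scaffold protein, was at 21.3 against 39 FPKM, and at 11.2 and 9.33 against 26.3 and 18.3 FPKM. S100a6, a calcium-binding protein, was at 100 against 192 FPKM, and at 26.3 and 44.6 against 52.1 and 120 FPKM. In all 5 genes the siRpl14+siDux libraries of set 3 lay above both siRpl14 libraries, which the matching rule requires.

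Cryab, the small heat-shock protein alpha-B crystallin, was at 11.5 against 26.7 FPKM in set 2 and at 26.5 and 28.6 against 73.2 and 107 FPKM in set 3 (1.65 ± 0.30, SE; limma, adjusted p = 0.203). It was also higher with siDux alone in set 3, at 73.9 and 125 FPKM against 55.3 and 53.1 FPKM in siNT. Mt1, a metallothionein that binds zinc and copper, was at 144 against 263 FPKM in set 2 and at 0 and 22 against 33.2 and 60.4 FPKM in set 3. Its siNT libraries were higher than all of these, at 549 FPKM in set 2 and 114 and 74.6 FPKM in set 3. Phlda1, a pleckstrin-homology protein, was at 19 against 42.2 FPKM, and at 34.1 and 42.7 against 48.8 and 85.7 FPKM. Bhlhe40, a helix-loop-helix repressor, was at 7.39 against 18.4 FPKM, and at 7.68 and 6.46 against 9.9 and 16.3 FPKM. Capn2, a calpain protease, was at 6.64 against 12.1 FPKM, and at 0.849 and 2.22 against 8.37 and 7.65 FPKM. Dusp14, a dual-specificity phosphatase, was at 3.04 against 5.83 FPKM, and at 0 and 3.34 against 8.69 and 9.38 FPKM. The uncharacterised 2200002D01Rik was at 2.52 against 6.62 FPKM, and at 0 and 4.05 against 4.75 and 6.2 FPKM.

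**Figure D4:**
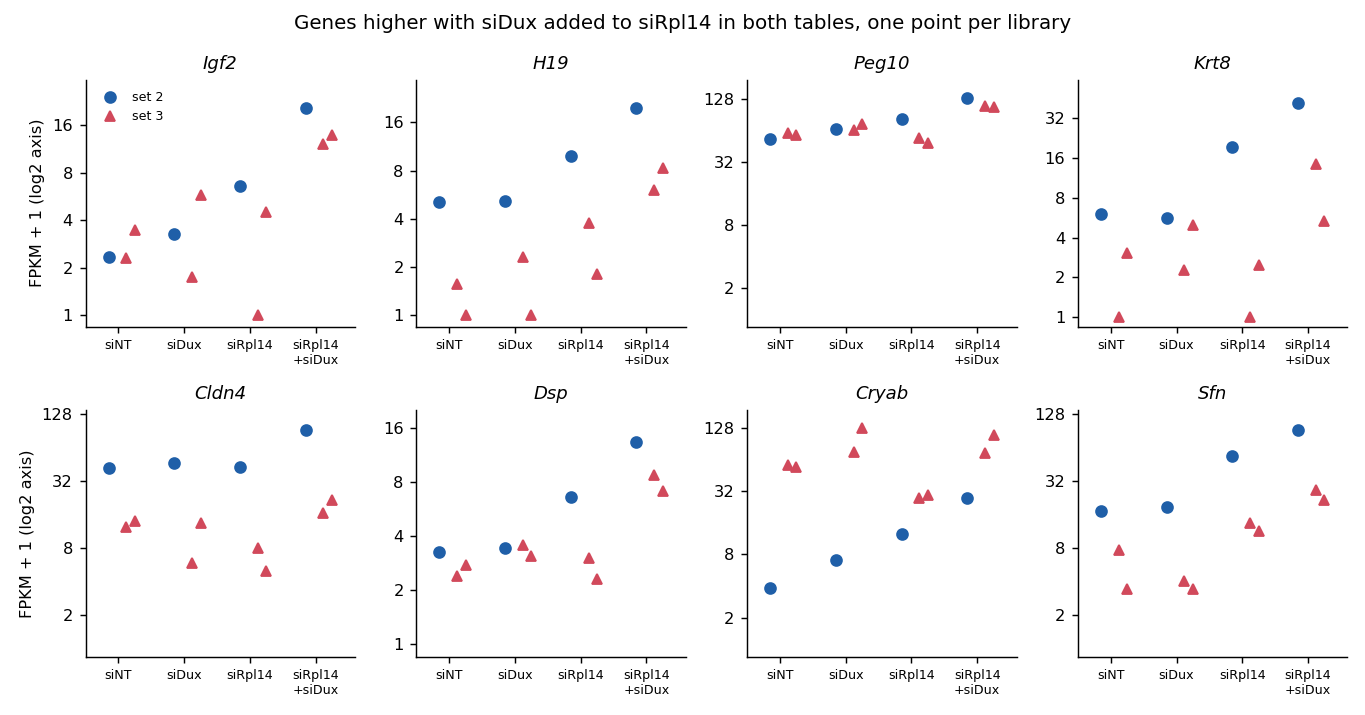
FPKM + 1 on a log2 axis in every library of sets 2 (circles) and 3 (triangles) for 8 genes higher in both tables when siDux was added to siRpl14. In each panel the siRpl14+siDux libraries lie above the siRpl14 libraries of the same set, which the choice of these genes required. Cryab in set 3 is as high in the siDux libraries, at 73.9 and 125 FPKM.

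Krt8 belongs to a trophectoderm list whose members were measured together. The list had medians of 0.38 in set 2 and 0.35 in set 3. In set 2, 5 of its 16 measured members were at least 1.5-fold higher, where 1.53% of all genes were, and 0 lower. In set 3 the groups did not overlap for 3 of 11, all higher (27.3%, against 16.6% of all genes). Krt18, the keratin partner of Krt8, was at 14.3 against 27.9 FPKM in set 2 and at 4.29 and 3.65 against 4.70 and 8.03 FPKM in set 3. Krt19 was at 11.2 against 31.2 FPKM in set 2, but at 10.8 and 2.30 against 6.21 and 4.44 FPKM in set 3, where the groups overlapped. Tfap2c, an AP-2 transcription factor, was at 48.3 against 62.2 FPKM, and at 19.7 and 26.4 against 24.8 and 34.8 FPKM. The 6 defining trophectoderm markers summed to 17.1 against 28.7 FPKM in set 2 and to 1.31 and 5.41 against 4.44 and 8.03 FPKM in set 3, with Elf5 at 0 in all 6 libraries. The 5 primitive endoderm markers summed to 4.72 against 6.55 FPKM in set 2 and to 0 and 1.56 against 2.10 and 4.70 FPKM in set 3, with Sox17 and Sox7 at 0 in set 3. The part of such cells in the higher genes was not tested.

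Of 37 pluripotency genes measured in set 2, 2 were at least 1.5-fold lower, where 1.37% of all genes were. Higher by that much were 0, where 1.53% of all genes were. Their set 2 levels lay at 53.8 to 113% of siRpl14. Of 36 tested, the set 3 groups did not overlap for 15 lower (41.7%) and 1 higher, against 15.4% and 16.6% of all genes, while the medians were -0.08 in set 2 and -0.30 in set 3. By limma 0 were called (6 at an unadjusted p under 0.05), and Fbxo15 was the only one that matched as lower. Pou5f1, the core factor Oct4, was at 770 against 726 FPKM in set 2 and at 674 and 605 against 592 and 647 FPKM in set 3. Tdgf1, a Nodal co-receptor, was at 460 against 382 FPKM, and at 364 and 314 against 255 and 210 FPKM. Dppa5a was at 2545 against 2417 FPKM, and at 862 and 554 against 589 and 444 FPKM.

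The 78 ribosomal protein genes other than the target had medians of -0.02 and -0.09, and 0 were 1.5-fold different in set 2 or matched between the tables. The 49 ribosome biogenesis genes had medians of -0.12 and -0.14, with set 3 groups that did not overlap for 17 lower (34.7%, against 15.4% of all genes) and 5 higher (16.6% of all genes were). In set 2, 42 of these 49 were lower by any amount, as were 5501 of 11787 genes, and 0 by 1.5-fold. Ncl, the nucleolar protein nucleolin, which is also known to restrain Dux, was at 305 against 275 FPKM in set 2 and at 392 and 387 against 346 and 356 FPKM in set 3. Npm1, nucleophosmin, was at 1690.0 against 1346 FPKM, and at 2825 and 2953 against 2660.3 and 2881 FPKM.

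Both genes called in set 3 failed to match in set 2. Mir6363, a microRNA gene, was listed at 0 in both siRpl14 libraries and at 1772 and 1867 FPKM in both siRpl14+siDux libraries (10.83 ± 0.42, SE; limma, adjusted p = 9.23e-05), while in set 2 it was at most 0.000397 FPKM. Polr2k, a small subunit shared by the RNA polymerases, fell from 40.4 and 21.3 FPKM to a listing of 0 in both libraries (-4.92 ± 0.45, SE; limma, adjusted p = 0.0344), but stood at 22.1 against 22.3 FPKM in set 2. Without any single one of the 8 libraries Polr2k no longer passed, with limma's adjusted p between 0.0639 and 0.284.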

How the data were processed

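RNA-seq FPKM for 24819 genes were used as the authors deposited them in 2 tables, 1 with 12 libraries (sets 1 and 2) and 1 with 10 (set 3). Per the submitters' processing notes, reads were aligned with STAR and FPKM made with Cuffnorm on mm9. The sources used here do not give versions, annotation, strand setting or scaling, so overlapping and antisense genes may share reads. Read counts were not used, so depth could only be estimated as relative. From the commonest ratio of low values, siRpl14 replicate 2 and both siRpl14+siDux libraries of set 3 had 1.17, 0.924 and 0.85 times the depth of siRpl14 replicate 1. Only 2.5, 3.38 and 1.97% of the low values lay at that ratio, so these estimates are rough.

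Values were taken as log2(FPKM + 1), which understates differences of low genes. Set 3 was fitted with limma 3.58.1 (R 4.3.3, statmod 1.5.0), 4 groups and 8 libraries, keeping genes that reached 1 FPKM in 2 or more libraries, with trended and robust moderation, Benjamini-Hochberg adjustment and a threshold of 0.05. Its unreplicated libraries with siRpl11 were left out. Set 2 was not tested alone and kept genes with 1 FPKM in 1 of the libraries compared. The joint fit added the 4 set 2 libraries with a table term. The script was checked on simulated data. Alternatives were other pseudocounts (0.1, 5), filters, folds, scalings and moderation, a replicate block, the joint fit, the 4 libraries compared alone and leaving out each library.

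Named genes are the siRNA targets, called genes, up to 15 matching genes per direction with the largest smaller difference at a mean of 5 FPKM or more, the highest members of each list, and the genes moved most in set 1, with exceptions stated. Members and lists were chosen with earlier results of these data known. Promoter windows are RefSeq's on GRCm38.p6, matched by symbol. The table's Dux is Duxf3 in RefSeq.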

Additional observations from a re-analysis of the deposited data

Results flagged for a closer look

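Limma's test of the interaction, which compares the effect of siDux between the siRpl14 and siNT backgrounds of set 3, called 2 of 13189 genes. Mir6363 had an interaction of 10.83 on log2(FPKM + 1) (limma, adjusted p = 0.00134), listed at 0 in all other 6 libraries of the fit and high in both siRpl14+siDux libraries. Gm9748 had an interaction of -4.78 (limma, adjusted p = 0.042). It was listed at 0 in both siNT libraries, at 18.8 and 18.6 FPKM in siDux, at 66.3 and 49.7 FPKM in siRpl14 and at 45.8 and 36.1 FPKM in siRpl14+siDux. Its interaction rests on those siNT listings of 0, and a 0 in set 3 can be a failed estimate. With a pseudocount of 5 FPKM, without a filter, or with the replicate number as a block, 0 negative interactions were called. Gm9748 thus did not pass under those settings. Neither of the 2 genes was measured in set 2, where Gm9748 reached at most 0.0883 FPKM, so neither has a second table behind it.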

How the results depend on the processing

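The set 3 count of 2 called genes became 16 with a pseudocount of 0.1 FPKM, 1 with 5 FPKM, 10 with a filter of 5 FPKM, 19 with plain empirical Bayes, and 1 each in the joint fit and in the 4 libraries alone. Leaving out 1 library gave 0 to 3, with 0 when either siRpl14+siDux library was left out. The interaction count of 2 became 1 with a pseudocount of 5 FPKM, 1 without a filter, 13 with plain empirical Bayes, 0 jointly, and 0 to 2 without 1 library. With the replicate number as a block, each of these counts was 1. Same-numbered libraries deviated together at r = 0.0293 to 0.0826, which does not settle whether the numbers pair them. The labels do not say.

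Genes matching as lower (34) became 23 at 2-fold, 79 at a log2 difference of 0.32 in place of 0.58, 19 with a pseudocount of 5 FPKM and 15 with a filter of 5 FPKM, and 41 to 45 without 1 library. Genes matching as higher (43) became 8 at 2-fold, 199 at the log2 difference of 0.32, 85 and 16 with pseudocounts of 0.1 and 5 FPKM, 20 with the filter of 5 FPKM, and 50 to 59 without 1 library. The set 3 median of the 2C-like list (-2.32) was -5.02 and -0.94 with those pseudocounts, -2.07 without a filter, -2.95 with a filter of 5 FPKM, and -2.44 to -2.23 without 1 library. Without 1 library, a side of set 3 holds a single library, so the rule on overlap is easier to meet. The larger matching counts there are therefore no gain in matching.

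Of 799 values of 46 genes under these settings, 760 kept direction and side of the threshold, 24 were weaker, 7 stronger and 8 reversed. The sign of Rpl14 turned with median-ratio scaling (0.024) and jointly (0.0023) and ranged from -0.18 to 0.16 without 1 library. That of Usp17lc turned jointly (-0.88). Without 1 library, Usp17la ranged from -0.53 to 0.22, Usp17lc from -0.60 to 0.84 and Arg2 from -2.33 to 0.74. None of these was called. The causes were not tested. The low resolution of set 3 limits every gene under a few FPKM.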
